A study of Mus musculus with 12 samples.

Results

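Ileal bile acid uptake and signalling through the farnesoid X receptor (FXR) were followed across small bowel RNA libraries in 7 genes, Slc10a2, Fabp6, Slc51a, Slc51b, Nr1h4, Fgf15 and Nr0b2, a list set by their known roles and matched by symbol among the 35791 genes of the count files. All 7 were found, each as 1 entry. Bile acids made in the liver are taken back in the last part of the small bowel: the apical carrier ASBT (Slc10a2) brings them into enterocytes, the ileal bile acid binding protein (Fabp6) binds them in the cytosol, and the heterodimer of OSTα and OSTβ (Slc51a and Slc51b) passes them out through the basolateral membrane. Inside the cell they activate FXR (Nr1h4), a nuclear receptor that acts with RXR partners on targets such as the hormone FGF15 (Fgf15), which travels to the liver and lowers bile acid synthesis, and the small heterodimer partner SHP (Nr0b2), a corepressor.

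The bowel came from male C57BL/6 mice, with an age given as 8 to 10 weeks. The study was of ileocecal resection, the removal of the end of the ileum with the cecum, and of 2'-fucosyllactose (2'-FL), a milk oligosaccharide. The same age is given for bowel from before and after resection, so it does not show whether these differed in age at collection. There were 4 groups of 3 libraries. Pre control and Post control are bowel from before and after resection without the supplement, and Pre 2'-FL and Post 2'-FL are bowel from before and after resection in the supplemented arm, where 2'-FL was given at 2.5 g/L from the day of resection. All animals passed through a liquid diet to standard chow. The general protocol dates the collection of every bowel to 8 weeks after the operation, which contradicts the 6 Pre labels, and groups here follow each library's own label. If 2'-FL began on the day of resection, bowel from before it had met no supplement. The Pre 2'-FL label conflicts with this, so the Pre groups may not differ in supplement. The labels do not give the bowel segment, or whether libraries with the same number came from 1 mouse, so every p measures the spread between these libraries, which may in part be technical.

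Library totals ran from 5663275 to 9385266 counts, and 1 count stood for 0.1 to 0.19 CPM (counts relative to the library total, scaled by TMM, which evens out composition between libraries). Of the 7 genes, 6 passed the filter on low counts among 13154 tested genes, and Nr0b2 did not. Calls rest on an adjusted p under 0.05 in edgeR's quasi-likelihood test over those 13154 genes. Because levels in many libraries followed transcript length, each difference was also fitted with the length and GC trends of every library taken off, called corrected below. Liver markers summed to 3.54 to 95.9 CPM, pancreas markers to 4.84 to 23.0 CPM and fat markers to at most 65.0 CPM per library, with the highest liver and fat sums in Pre 2'-FL 1. The library Pre control 2 was the highest of all 12 in Fgf15, Fabp6, Slc10a2 and Slc51a, so results resting on it are given without it too.

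The promoters of Fabp6, Slc51a and Slc51b are shown because Fabp6 and Slc51b were called between groups, and Slc51a and Slc51b encode the subunits of 1 transporter. Windows of 300 bases, from 250 before to 50 after the annotated start, came from RefSeq (GRCm38.p6). The windows held 6 of the 7 genes, all but Fgf15. Each was searched on both strands for the inverted repeat bound by FXR (AGGTCA and TGACCT with 1 base of any kind between them). The capitals mark a match with at most 2 mismatches over the 12 fixed letters in Fabp6, and the closest stretch, with 3 mismatches, in Slc51a and Slc51b. The stretches lie at chr11:43601664-43601812 (Fabp6), chr16:32487906-32487998 (Slc51a) and chr9:65422908-65423000 (Slc51b), all on the minus strand and read 5′ to 3′. The windows follow RefSeq starts, which can differ from the gene spans of the GENCODE annotation given below. The marked bases of Slc51b, at chr9:65422948-65422960, straddle the 5′ end of its GENCODE span, and the Nr1h4 window lies inside the span of its gene.
Fabp6: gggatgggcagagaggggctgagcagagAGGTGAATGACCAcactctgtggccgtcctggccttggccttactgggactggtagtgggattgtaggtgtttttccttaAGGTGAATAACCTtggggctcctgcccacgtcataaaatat
Slc51a: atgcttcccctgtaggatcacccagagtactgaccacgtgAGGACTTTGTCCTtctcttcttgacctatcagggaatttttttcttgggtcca
Slc51b: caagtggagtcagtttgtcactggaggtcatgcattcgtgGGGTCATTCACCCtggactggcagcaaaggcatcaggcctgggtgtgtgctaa
Fabp6 held 2 FXR matches, which began 222 and 142 bases before its start. A window with at least 1 such match was 1.14% of the 32817 windows in the table. The other windows of these genes held none, with 3 mismatches as the closest in Slc51a and Slc51b and 4 in Slc10a2, Nr1h4 and Nr0b2. Nr1h4 held 1 match with 2 mismatches to the direct repeat of HNF4 (AGGTCA and AGGTCA with 1 base between them, 3.86% of all windows). Both AGGTCA repeats share their first 6 letters, and the HNF4 match of Nr1h4 covers the same bases as its closest FXR stretch. A match describes letters, and no binding was measured.

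Fgf15, the hormone of the pathway, was counted in every library from before resection and in none from after it. The gene (Entrez 14170) lies on chr7:144896531-144900953 on the plus strand, with 3 exons and a transcript of 1810 nt. Fgf15 was at 12.3, 24.4 and 0.356 CPM in Pre control 1 to 3, drawn from 97, 241 and 3 counts. In Pre 2'-FL 1 to 3 it was at 5.91, 22.3 and 6.77 CPM, from 49, 143 and 40 counts. All 6 Post libraries had 0 counts, and 3 counts, the limit that a count of 0 allows, stood for 0.3 to 0.567 CPM there. Pre control 3, with 3 counts, was the lowest Pre library and lay within that limit, and the other 5 Pre libraries were above it.

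Against the mean floor of 3 counts per library, Fgf15 was at least 28.3-fold lower after resection in the control arm, from a mean of 12.4 ± 12 CPM (SD, n = 3), and its adjusted p was 0.0205 (corrected 0.0217). In the 2'-FL arm it was at least 22.1-fold lower, from 11.7 ± 9.23 CPM (SD, n = 3), with an adjusted p of 0.00448 (corrected 0.00802). The bound became 14.5-fold in the control arm without Pre control 2 and 12-fold in the 2'-FL arm without Pre 2'-FL 2. The control call was lost when Post control 1 (adjusted p 0.0644) or Post control 2 (adjusted p 0.074) was left out, although all Post counts are 0. Over both arms Fgf15 was at least 24.9-fold lower, with an adjusted p of 0.000478 (corrected 0.000941) and, for the level in CPM, an exact two-sided permutation p of 0.00216 over 6 against 6 libraries, the smallest this design allows. The supplement comparison had no Fgf15 to compare after resection, and before it the groups overlapped (log2 -0.10 ± 0.88 SE, adjusted p 1). Fewer cells that make Fgf15 and less of its RNA per cell cannot be told apart in bulk RNA. The antisense genes Gm26793 and Gm39119, of the annotation overlap Fgf15 and were not analysed here.

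**Figure D1:**
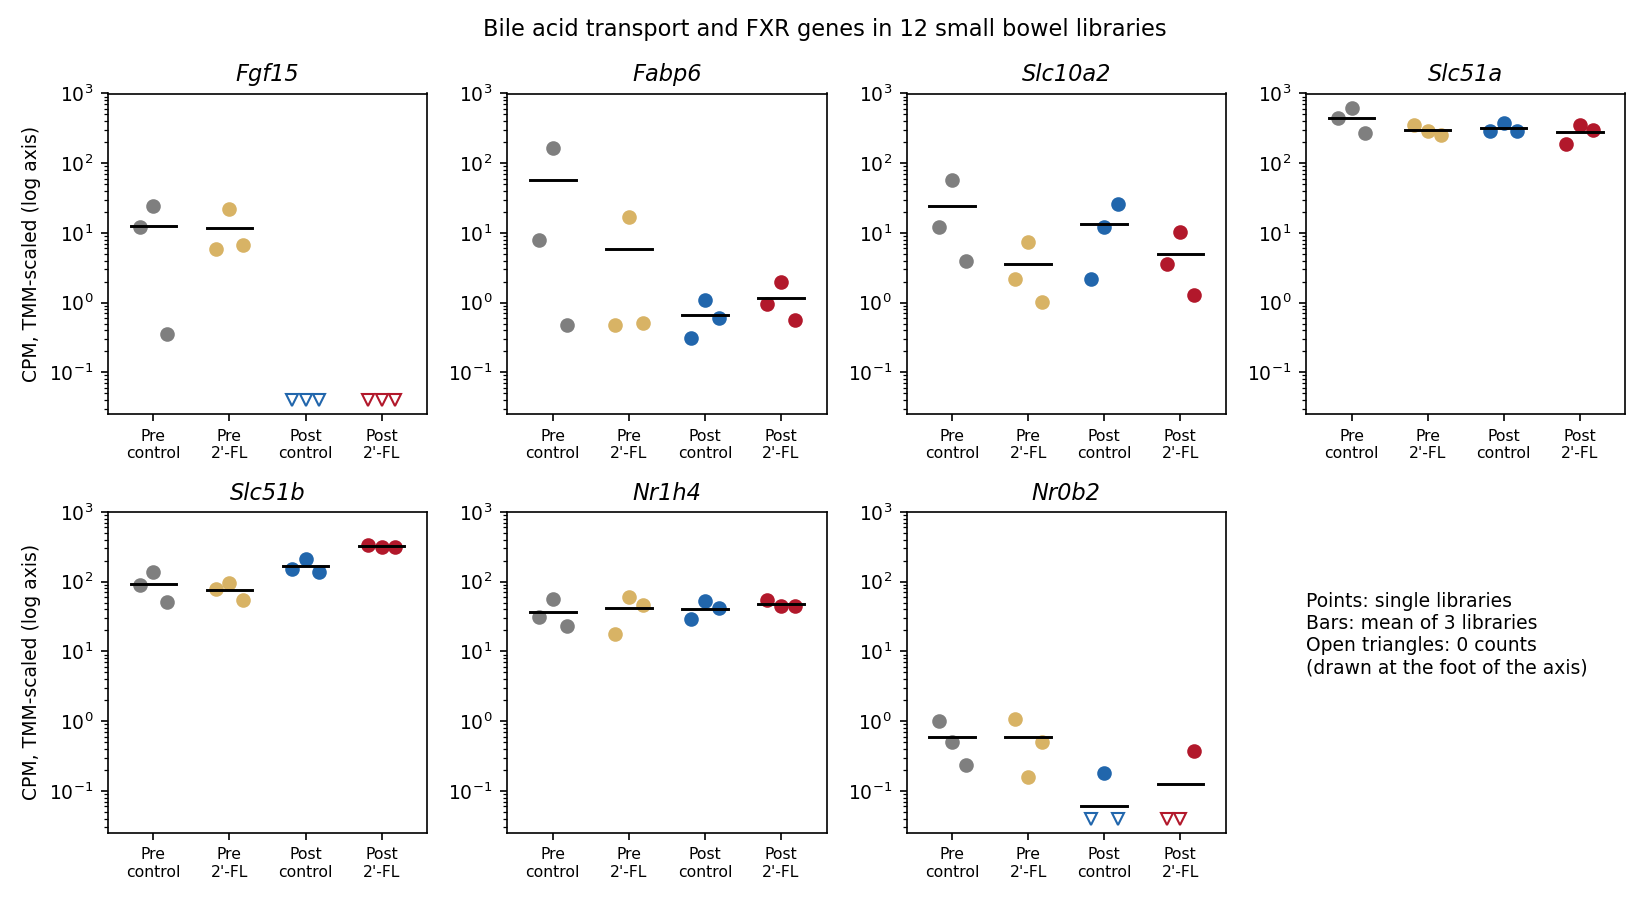
Level of each of the 7 genes in CPM (TMM-scaled, log axis) in the 12 libraries by group; points are single libraries, bars are means of 3 libraries and open triangles mark 0 counts. Fgf15 is absent from the counts of all 6 Post libraries, Slc51b lies highest in the 3 Post 2'-FL libraries (315 to 341 CPM), and Fabp6 spans 0.475 to 165 CPM within Pre control.

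Among 6 tested genes, 2 were called after resection in the control arm, Fgf15 and Fabp6, both lower. When the fit held the libraries of that arm alone, both missed the filter on low counts, and 0 of the 4 genes left were called. In the control arm 10.8% of all tested genes were called (4.42% higher and 6.33% lower), and 12.6% with the correction. In the 2'-FL arm 2 of the 6 were called, Slc51b higher and Fgf15 lower, against 55.3% of all tested genes (25.3% higher, 30.0% lower, 35.9% corrected). Over both arms 3 of the 6 were called, Slc51b higher with Fgf15 and Fabp6 lower, against 56.4% of all tested genes (25.3% higher, 31.1% lower, 43.4% corrected). As counted, the share of the 6 that was called was no greater than that of all tested genes in the 2'-FL arm and over both arms. The same numbers of the 6 were called with the correction, where 3 of 6 over both arms stood somewhat above the 43.4% of all tested genes. Pre and Post libraries did not overlap for 1 of the 6 in the control arm, 2 in the 2'-FL arm and 1 over both arms, against 34.9%, 61.6% and 17.0% of all tested genes. The median log2 change of the 6 was -0.65 in the control arm (all tested genes -0.05), 0.06 in the 2'-FL arm (all -0.13) and -0.21 over both (all -0.10). These medians are the same with Fgf15 entered at its fitted value or at its bound. These comparisons share libraries, the joint one holding both arms.

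Slc10a2, the apical carrier that takes bile acids up (Entrez 20494, chr8:5083219-5105351, minus strand, 6 exons, 4152 nt), was detected in every library, and its groups overlapped. Its level was 12.2, 56.6 and 3.92 CPM in Pre control 1 to 3 and 2.17, 7.49 and 1.01 CPM in Pre 2'-FL 1 to 3. After resection it was 2.15, 12.2 and 25.9 CPM in Post control 1 to 3 and 3.59, 10.2 and 1.30 CPM in Post 2'-FL 1 to 3. The level thus spread 14.5-fold within Pre control and 12-fold within Post control, and the order of libraries mixed Pre with Post throughout. The change after resection was -0.83 ± 0.88 on the log2 scale (SE) in the control arm (adjusted p 0.551) and 0.54 ± 1.06 in the 2'-FL arm (adjusted p 0.686), and neither was called. Leaving out single libraries moved the control change between -1.77 and 0.78. Its SEs were close to 1 log2 unit, so a change of that size was not detectable at this spread.

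Fabp6, the cytosolic binding protein (Entrez 16204, chr11:43596049-43601540, minus strand, 4 exons, 479 nt), had most of its counts in 3 Pre libraries. It was at 7.87, 165 and 0.475 CPM in Pre control 1 to 3 and at 0.482, 16.8 and 0.507 CPM in Pre 2'-FL 1 to 3. In Post control 1 to 3 it was at 0.308, 1.10 and 0.601 CPM, and in Post 2'-FL 1 to 3 at 0.946, 2.00 and 0.557 CPM. No Post library passed 2.00 CPM, but Pre control 3, Pre 2'-FL 1 and Pre 2'-FL 3 lay inside the Post range, so the groups overlapped. Pre control 2 alone was 348-fold above Pre control 3.

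Fabp6 fell by 6.46 ± 1.74 on the log2 scale (SE) in the control arm (adjusted p 0.0321; corrected adjusted p 0.0327). Without Pre control 2 the change was -2.63 and was not called (adjusted p 0.245), and leaving out any 1 of the Post control libraries also ended the call (adjusted p 0.0771 to 0.114). In the 2'-FL arm the change was -2.26 ± 1.76 (adjusted p 0.288; corrected -3.38 ± 1.80, adjusted p 0.157), and it was 1.34 without Pre 2'-FL 2. Over both arms Fabp6 fell by 4.36 ± 1.23 (adjusted p 0.00787; corrected adjusted p 0.00698), which was -2.42 without Pre control 2. Leaving out Pre 2'-FL 2 ended that call (-2.55, adjusted p 0.243). An exact two-sided permutation test of the level in CPM over 6 against 6 libraries gave p = 0.162. The difference between the arms was not called (interaction 4.20 ± 2.76, adjusted p 0.306).

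The segment of bowel bears on these levels and is not in the labels, so 6 other genes of the distal small bowel were followed, all 6 of them tested and none at 0 in any library. Over both arms 1 was higher (Nts, neurotensin) and 2 were lower (Cubn, the cubilin receptor for vitamin B12 with intrinsic factor, and Pyy, peptide YY), and 0 were higher and 3 lower (Cubn, Pyy and Gcg) with the correction. Cubn fell by 3.20 ± 0.30 (SE, adjusted p 1.55e-05; corrected -2.37), from means of 553 CPM in Pre control and 305 CPM in Pre 2'-FL to 94.8 CPM in Post control and 21.1 CPM in Post 2'-FL. Pyy fell by 1.43 ± 0.36 (adjusted p 0.00365), and Nts rose by 0.59 ± 0.23 (adjusted p 0.0373) but stood at -0.50 with the correction, not called. Amn, the membrane partner of cubilin, and Mep1b, a brush border protease, were not called (log2 0.11 and 0.24). Gcg, proglucagon, was at -0.33 ± 0.16 (adjusted p 0.0982), and at -1.14 corrected (adjusted p 5.65e-05). The summed level of the 6 was 1630 to 2760 CPM in Pre control, 1590 to 2210 in Pre 2'-FL, 2140 to 2190 in Post control and 1520 to 1920 in Post 2'-FL. Mep1b made up most of these sums, with means of 1340, 1250, 1690 and 1380 CPM in the same order of groups.

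Of 12 genes of the proximal small bowel 10 were tested, and over both arms 5 were higher and 3 lower (4 and 2 corrected). Ada, adenosine deaminase, rose by 2.49 ± 0.33 (SE, adjusted p 6.2e-05; corrected 2.32), and the transcription factor Onecut2 rose by 2.48 ± 0.41 (adjusted p 0.000237; corrected 3.21). Sct, secretin, rose by 0.91 ± 0.16 (corrected 0.52) and Gip, the incretin hormone of upper bowel K cells, by 0.95 ± 0.17 (corrected 0.39, adjusted p 0.0578, no longer called). The 3 that fell, named here after their values were seen, were Lct, lactase (-1.17 ± 0.24, adjusted p 0.0012; corrected -0.37, not called), Cybrd1, a duodenal iron reductase (-1.15 ± 0.25, adjusted p 0.00155; corrected -0.63), and Slc40a1, the iron exporter ferroportin (-1.26 ± 0.38, adjusted p 0.0122; corrected -1.28). The untested Pdx1 and Onecut3, duodenal regulators, were at 0 in 9 and 7 of the 12 libraries. The summed level of the 12 was 1580 to 2630 CPM in Pre control, 1040 to 2320 in Pre 2'-FL, 2890 to 3340 in Post control and 1600 to 2210 in Post 2'-FL. Of 9 genes of cecum and colon epithelium 4 were tested, with 1 higher and 2 lower over both arms (0 and 2 corrected). Ang4, 1 of the 2 lower, is also counted below as a Paneth cell marker. Car1 and Hoxd13 were at 0 in all 12 libraries. Untested Hoxb13 and Aqp8 had means of 2.76 and 0.667 CPM in Post control, and of 0.103 and 1.85 CPM in Post 2'-FL. Neither had a mean above 0.0564 CPM in a Pre group. Untested Hoxd10 went the other way, at 0.0396 CPM in Pre control, 0.104 in Pre 2'-FL and 0 in both Post groups. Over both arms 3 of the 6 distal, 8 of the 10 proximal and 3 of the 4 tested cecum and colon genes were called in 1 direction or the other, where 56.4% of all tested genes were. Their part in the Fgf15 and Fabp6 results was not tested.

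Slc51a and Slc51b, the subunits of the basolateral exporter, had the highest mean levels of the 7 genes per transcript length, and of the pair Slc51b was called between groups and Slc51a was not. Slc51a (Entrez 106407, chr16:32474504-32487879, minus strand, 9 exons, 2618 nt) was at 446, 614 and 269 CPM in Pre control 1 to 3 and at 357, 286 and 251 CPM in Pre 2'-FL 1 to 3. After resection it was at 288, 380.0 and 291 CPM in Post control 1 to 3 and at 186, 355 and 301 CPM in Post 2'-FL 1 to 3. All groups overlapped. Its change was -0.47 ± 0.29 on the log2 scale (SE) in the control arm (adjusted p 0.296) and -0.09 ± 0.29 in the 2'-FL arm (adjusted p 0.816). Pcyt1a, on the opposite strand, overlaps the 3′ end of Slc51a, and whether the counts used strand is not given. Pcyt1a was at 111 to 323 CPM and fell in the 2'-FL arm (-0.69 ± 0.26, adjusted p 0.0334), and its part in the Slc51a counts was not tested.

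Slc51b (Entrez 330962, chr9:65412714-65422955, minus strand, 4 exons, 709 nt) was at 88.8, 136 and 51.6 CPM in Pre control 1 to 3 and at 78.3, 95.0 and 54.5 CPM in Pre 2'-FL 1 to 3. After resection it was at 153, 212 and 136 CPM in Post control 1 to 3 and at 341, 315 and 316 CPM in Post 2'-FL 1 to 3. The Post 2'-FL libraries were above all other 9, and Pre control 2 (136.2 CPM) and Post control 3 (135.9 CPM) were the pair where Pre and Post overlapped. Rasl12, which overlaps Slc51b on the opposite strand, stayed at 1.25 to 4.92 CPM and was not called in any comparison.

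Slc51b rose by 2.09 ± 0.31 on the log2 scale (SE) in the 2'-FL arm, a 4.26-fold difference (adjusted p 0.000118). With the length and GC trends taken off the rise was 0.91 ± 0.31, or 1.87-fold (adjusted p 0.0376). In the control arm the change was 0.85 ± 0.30 and was not called by edgeR (adjusted p 0.0775; corrected 0.73 ± 0.31, adjusted p 0.131). It was called in that arm by DESeq2 (0.88, adjusted p 0.0385) and by edgeR without Pre control 2 (1.27, adjusted p 0.034). Over both arms Slc51b rose by 1.47 ± 0.22 (adjusted p 0.000108; corrected 0.82 ± 0.22, adjusted p 0.00953), and an exact two-sided permutation test of the level over 6 against 6 libraries gave p = 0.00433.

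After resection, Slc51b was the 1 gene of the 6 called between Post 2'-FL and Post control, where 38.1% of all tested genes were called. It was 0.96 ± 0.30 higher (log2, SE, adjusted p 0.0218) with 2'-FL, 324 ± 14.9 against 167 ± 39.7 CPM (SD, n = 3 each). With the correction the difference was -0.08 ± 0.31 (adjusted p 0.885), within its SE of 0, so it shows no direction. There 0 of the 6 were called, against 2858 of 13154 tested genes. At an unadjusted p under 0.05 it was also 0 of the 6, against 4875 of all tested genes. The Slc51b call as counted also ended without Post control 1, Post control 3 or Post 2'-FL 1 (adjusted p 0.0571, 0.0793 and 0.0618). Beside this difference, summed Paneth cell markers were at 4660 to 6300 CPM in Post control and 9990 to 25600 CPM in Post 2'-FL, and smooth muscle markers at 400 to 620 and 990 to 1200 CPM, with 4 of 4 genes tested in each list. Of the Paneth markers 3 were higher with 2'-FL (median log2 1.57), and 0 with the correction (median 0.12). Tagln was the 1 smooth muscle marker called higher (mean 155 CPM in Post control, 577 in Post 2'-FL), and 0 were lower. With the correction 2 smooth muscle markers were higher and 0 lower. Myh11 of that list went the other way, 78.0 CPM in Post control and 45.7 in Post 2'-FL, and was not called. Of 10 enterocyte markers 7 were lower and 0 higher (median -1.06), and 5 were lower with the correction (median -0.92). The part of these markers in the Slc51b difference was not tested. Between the arms the change differed by 1.24 ± 0.42 (adjusted p 0.0609; corrected 0.18 ± 0.44, adjusted p 0.857), and 0 of the 6 were called in this interaction by edgeR, against 15.5% of all tested genes. At an unadjusted p under 0.05 the interaction held 1 of the 6, against 4273 of all tested genes. That gene was Slc51b, which DESeq2 called (1.29, adjusted p 0.0226). Before resection 0 of the 6 were called between 2'-FL and control by edgeR and 0 by DESeq2, against 0.0152% of all tested genes. At an unadjusted p under 0.05 there were 2, Fabp6 (-3.31 ± 1.34) and Slc10a2 (-2.78 ± 1.00), against 445 of all tested genes. The adjusted p was 1 for both of these, and whether Pre 2'-FL bowel had met the supplement is unclear.

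**Figure D2:**
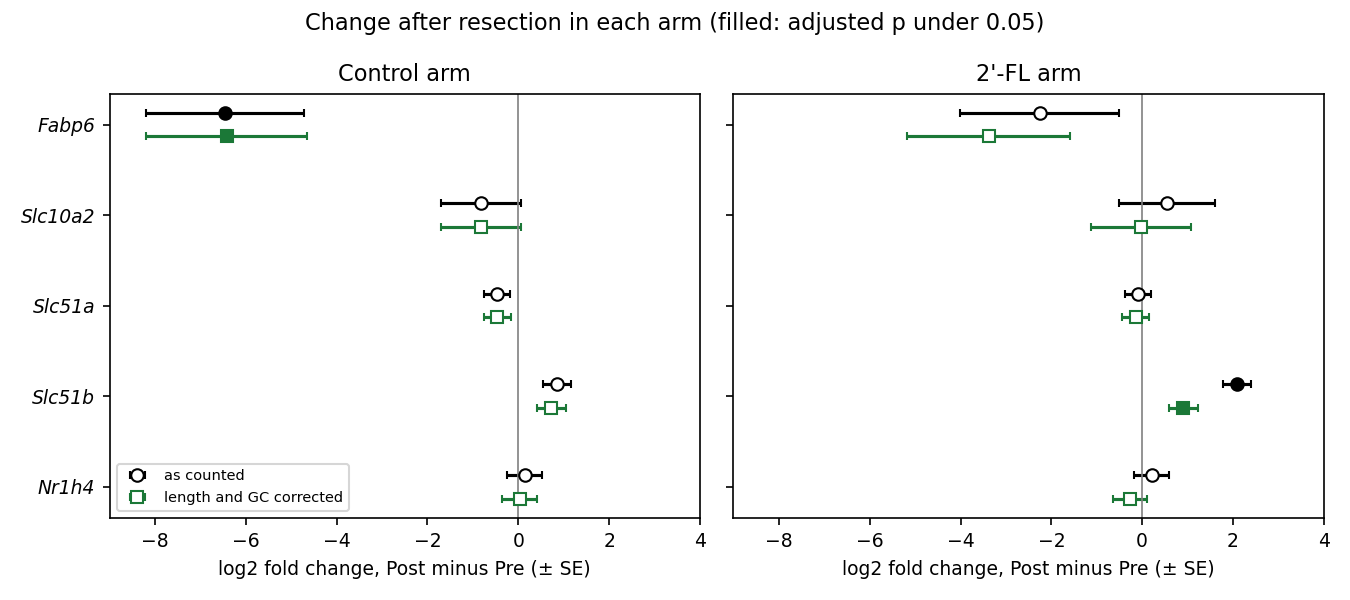
Change after resection (log2 fold change, Post minus Pre, bars ± SE) in the control arm (left) and the 2'-FL arm (right) for 5 tested genes, as counted (circles) and with length and GC trends taken off (squares); filled symbols have an adjusted p under 0.05. Slc51b stands at 2.09 as counted and 0.91 corrected in the 2'-FL arm, and Fgf15 is left out because its Post counts are all 0.

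The balance of the subunits was formed after their values had been seen, so it is a description of the same data and carries no test. Per transcript length, Slc51b stood to Slc51a at a ratio of 0.734, 0.819 and 0.708 in Pre control 1 to 3 and of 0.81, 1.23 and 0.801 in Pre 2'-FL 1 to 3. The ratio was 1.97, 2.06 and 1.72 in Post control 1 to 3 and 6.76, 3.28 and 3.87 in Post 2'-FL 1 to 3. Every Post library was above every Pre library. The mean ratio was 0.85 ± 0.191 before and 3.28 ± 1.90 after resection (SD, n = 6 each). On the log2 scale the counted ratio was 1.80 higher after resection. With length and GC trends taken off it was 1.18 higher, the Pre libraries at -2.19 to -1.25 and the Post libraries at -0.91 to -0.12. Post control and Post 2'-FL did not overlap as counted (-1.10 to -0.84 against -0.17 to 0.87) and overlapped with the correction.

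**Figure D3:**
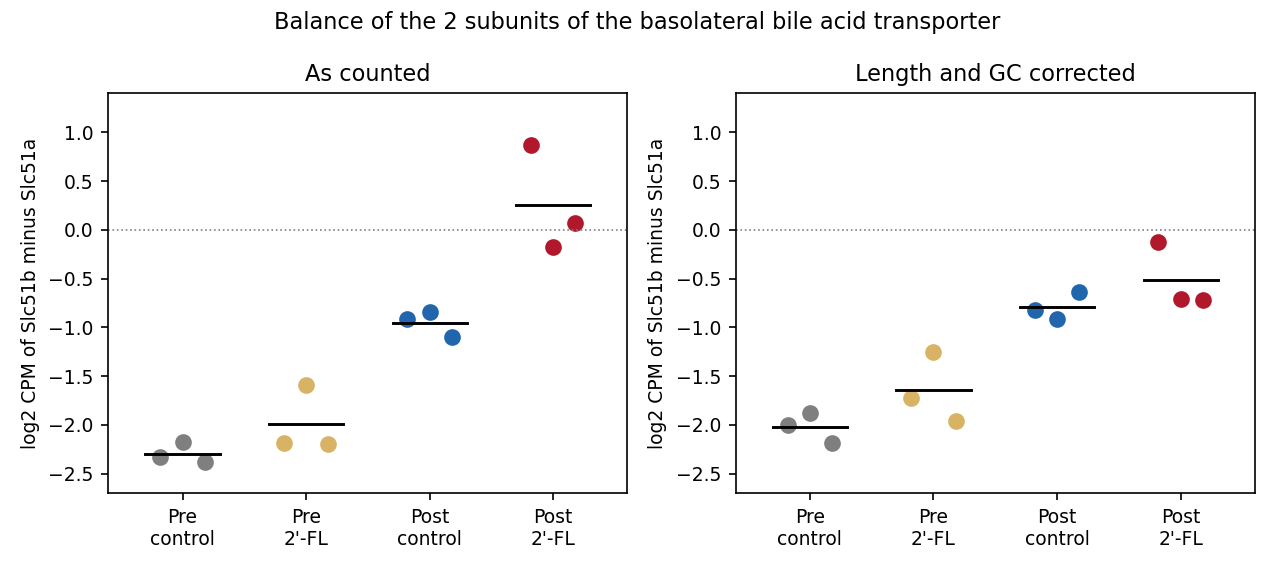
Log2 CPM of Slc51b minus log2 CPM of Slc51a in each library, as counted (left) and with length and GC trends taken off (right); points are libraries and bars are means of 3. All 6 Post libraries lie above all 6 Pre libraries in both panels, with means of -0.347 after and -2.14 before resection as counted, and of -0.653 and -1.83 corrected.

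Nr1h4, the gene of FXR itself (Entrez 20186, chr10:89454234-89533585, minus strand, 10 exons, 2013 nt), was present at similar levels in all groups. It was at 31.4, 56.3 and 23.5 CPM in Pre control 1 to 3 and at 18, 60.5 and 46.4 CPM in Pre 2'-FL 1 to 3. After resection it was at 28.8, 52.6 and 41.6 CPM in Post control 1 to 3 and at 53.9, 45.2 and 45.2 CPM in Post 2'-FL 1 to 3. All 6 Post values fell between the lowest and highest Pre values. The change was 0.14 ± 0.38 on the log2 scale (SE) in the control arm (adjusted p 0.828), 0.21 ± 0.38 in the 2'-FL arm (adjusted p 0.654) and 0.18 ± 0.27 over both (adjusted p 0.592; corrected -0.12 ± 0.27). Fgf15, a target of the receptor, was at 0 counts in the 6 Post libraries, where Nr1h4 was at 28.8 to 53.9 CPM. Activity of the receptor was not measured, and its part in the Fgf15 result was not tested.

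Nr0b2, the gene of SHP (Entrez 23957, chr4:133553376-133556536, plus strand, 2 exons, 1132 nt), was near the limit of detection throughout. The counts were 8, 5 and 2 for Pre control 1 to 3, then 9, 1 and 3 for Pre 2'-FL 1 to 3, or 0.156 to 1.09 CPM. After resection they were 0, 1 and 0 for Post control 1 to 3, then 0, 0 and 2 for Post 2'-FL 1 to 3, or at most 0.372 CPM. In all, 28 counts came from the 6 Pre and 3 from the 6 Post libraries. The 2'-FL groups overlapped, and the control groups did not, by 2 counts in Pre control 3 against 1 in Post control 2. Both are under the limit of 3 counts that a count of 0 allows. Of all tested genes 34.9% did not overlap in the control arm and 61.6% in the 2'-FL arm. The mean level of Nr0b2 was 0.585 ± 0.388 CPM before and 0.0924 ± 0.155 CPM after resection (SD, n = 6 each), with an exact two-sided permutation p of 0.0108. This p is 1 of 7, since the same test was run on each of the 7 genes, and it is not adjusted for that. It was 0.00866 to 0.0216 with any 1 library left out. With no filter on low counts, edgeR gave -2.72 ± 0.83 on the log2 scale (SE) over both arms, which was called (adjusted p 0.012), and no call in the control arm (adjusted p 0.108) or the 2'-FL arm (adjusted p 0.128). In each arm alone, 3 libraries against 3 cannot go below an exact permutation p of 0.1.

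Per kilobase of transcript, the mean order of the genes before resection was Slc51a (142 ± 53.2 CPM per kb, SD, n = 6), Slc51b (119 ± 43.8), Fabp6 (66.6 ± 137), Nr1h4 (19.5 ± 8.77), Fgf15 (6.64 ± 5.31), Slc10a2 (3.35 ± 5.13) and Nr0b2 (0.517 ± 0.343). After it the order was Slc51b (346 ± 127), Slc51a (115 ± 25.7), Nr1h4 (22.1 ± 4.5), Slc10a2 (2.22 ± 2.24), Fabp6 (1.92 ± 1.25), Nr0b2 (0.0816 ± 0.137) and Fgf15, which had no counts. Before resection Slc51a and Slc51b were closer than their spread, as was Slc10a2 to its neighbours Fgf15 and Nr0b2. The same held for Fabp6, with an SD of 137, and its neighbours Slc51b and Nr1h4. After resection it held for Slc10a2 and Fabp6, and for Nr0b2 and Fgf15. The place of Fabp6 before resection rests on Pre control 2, since its Pre median was 4.19 CPM against a mean of 31.9 CPM.

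Likeness was read as Pearson's r of log2 CPM over the 12 libraries, which share the step from Pre to Post and their depth. Closest to Fgf15 were Abca1, the cholesterol exporter (r 0.951, mean 85.3 CPM before and 7.41 after resection), Ampd3 (0.895), Hmmr (0.894), Syk (0.892) and Gbe1 (0.892). Closest to Slc51b were Mgst1, a microsomal glutathione transferase (r 0.973, mean 226 CPM before and 555 after), Vta1 (0.971), Tspan3 (0.969), Cyb5r4 (0.967) and Timmdc1 (0.966). Slc51a lay nearest Dgat2, an enzyme of triglyceride synthesis (r 0.885), Guca2a, guanylin (0.87), Mrfap1 (0.866), Olfr165 (0.845) and Ryk (0.843). Slc10a2 lay nearest Slc37a3 (0.851), Nos2 (0.822), Ccser1 (0.808), Scd2 (0.792) and Pde5a (0.789). For Fabp6 the values were lower, led by Me3 (0.809), Prss23 (0.755), Nrn1 (0.754), Fam198b (0.75) and Zfp90 (0.746). None of the 7 genes was among the 5 closest of these 5 genes, and r was 0.69 between Fgf15 and Fabp6, 0.7 between Fabp6 and Slc10a2, and -0.08 between Slc51a and Slc51b.

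Among 11 further genes of bile acid transport and conjugation 7 were tested, and over both arms 2 were higher and 4 lower (2 and 2 corrected), with a median log2 change of -0.78 against -0.10 for all tested genes (corrected -0.21 against 0.03). All tested genes were called at a share of 56.4% there (25.3% higher, 31.1% lower, 43.4% corrected). Abcg2, an apical efflux pump, rose by 1.06 ± 0.15 (SE, adjusted p 7.33e-05; corrected 1.19). Slco3a1, an organic anion transporter, fell by 1.55 ± 0.21 (adjusted p 6.29e-05; corrected -1.02), and Abcc4, an efflux pump for organic anions, fell by 1.46 ± 0.26 (adjusted p 0.000352; corrected -0.80). Slco2b1 fell by 0.78 ± 0.15 (adjusted p 0.000705) but not with the correction (-0.21, adjusted p 0.282). The second gene that rose, named after its values were seen, was Abcc3, a basolateral pump for bile acid conjugates, at 0.92 ± 0.23 (adjusted p 0.00414; corrected 1.67). Abcb11 and Slc10a1, the carriers of hepatocytes, were at 0 in 7 and 10 of the 12 libraries.

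Among 15 genes of bile acid sensing and partners of FXR 12 were tested, and over both arms 1 was higher and 5 lower, against 3 higher and 1 lower with the correction. As counted, the called share of this list was below the 56.4% of all tested genes called in that comparison (43.4% corrected). The median log2 change was -0.27 (corrected 0.23). Nr1i3, the receptor CAR, rose by 1.24 ± 0.20 (SE, adjusted p 0.000233; corrected 0.93), and Nr5a2, the receptor LRH-1, fell by 1.20 ± 0.20 (adjusted p 0.000302; corrected -0.99). Rxra, an RXR partner of FXR, fell by 0.70 ± 0.18 (adjusted p 0.00476) and stood at 0.09 with the correction, where it was not called. By arm its change was -0.17 ± 0.25 without the supplement (adjusted p 0.686) and -1.23 ± 0.26 in the 2'-FL arm (adjusted p 0.00127, corrected -0.04). Rxrb, another RXR partner named after its values were seen, stood at 0.26 ± 0.13 over both arms, not called. With the correction Rxrb rose by 0.73 (adjusted p 0.00165). Rxra was 1.36 ± 0.26 lower in Post 2'-FL than in Post control (adjusted p 0.00159; corrected -0.59, adjusted p 0.0485).

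Among 9 genes of bile acid synthesis 5 were tested, with 2 higher and 0 lower over both arms (1 and 0 corrected) and a median of 0.34. The share of all tested genes called there was 56.4% (43.4% corrected). Acox2, a peroxisomal oxidase of the side chain, rose by 0.73 ± 0.23 (SE, adjusted p 0.0147; corrected 0.96). Hsd3b7 rose by 0.41 ± 0.13 (adjusted p 0.0135; corrected 0.27, not called). Cyp7a1, the rate-limiting enzyme of the liver and the gene that FGF15 represses there, was at 0 in all 12 libraries.

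Among 12 other genes known to respond to FXR or bile acids 10 were tested, with 2 higher and 3 lower over both arms (3 and 4 corrected) and a median of -0.21. Apoc2, an activator of lipoprotein lipase, rose by 2.30 ± 0.31 (SE, adjusted p 6.87e-05; corrected 1.83), and Cyp3a11, a detoxifying monooxygenase, rose by 1.44 ± 0.29 (adjusted p 0.000919; corrected 0.94). Fgfr1 fell by 2.30 ± 0.33 (adjusted p 9.14e-05; corrected -1.56), and Car12, a carbonic anhydrase, fell by 1.07 ± 0.17 (adjusted p 0.000211; corrected -0.73). Its 5 calls among 10 genes were near the 56.4% of all tested genes called in that comparison.

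All 5 cytosolic lipid binding proteins listed beside Fabp6 rose over both arms, 4 of them with the correction, and their median was 1.65 (corrected 0.90). Over both arms 25.3% of all tested genes were called higher. In the control arm alone 1 of the 5 was called higher (1 corrected), and in the 2'-FL arm 5 were (3 corrected). Those shares were 4.42% and 25.3% of all tested genes as counted. Fabp2, the intestinal fatty acid binding protein, rose by 2.00 ± 0.29 (SE, adjusted p 9.76e-05; corrected 0.97), and Fabp1, the liver form, rose by 2.18 ± 0.37 (adjusted p 0.000288; corrected 1.25). Dbi, the acyl-CoA binding protein, rose by 1.65 ± 0.20 (adjusted p 3.85e-05; corrected 0.90). Rbp2, a retinol binding protein, rose by 1.27 ± 0.26 (adjusted p 0.00105) and missed the threshold with the correction (0.68, adjusted p 0.0539). Of 10 enterocyte markers 1 was higher and 5 were lower over both arms (1 and 1 corrected), against 56.4% of all tested genes called (43.4% corrected). Their summed level was 25700 to 41900 CPM in Pre control, 20300 to 33600 in Pre 2'-FL, 41500 to 44700 in Post control and 46000 to 52900 in Post 2'-FL, of which Fabp2 held a mean of 19200 CPM in Post control and 37000 CPM in Post 2'-FL. No enterocyte marker was at 0 in any library.

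**Figure D4:**
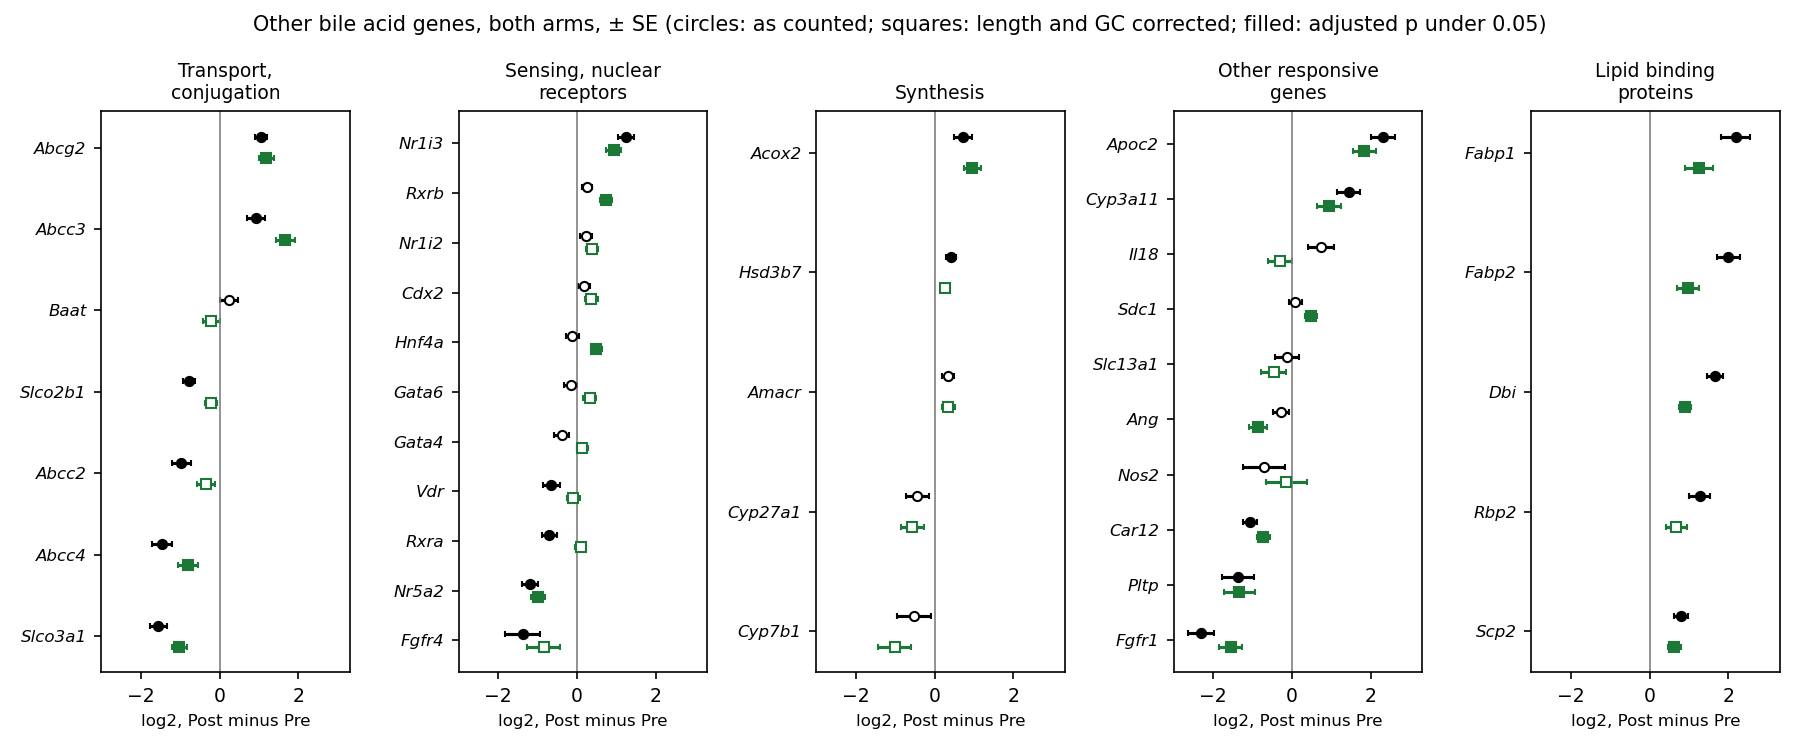
Log2 change over both arms (Post minus Pre, ± SE) of tested genes in 5 lists of bile acid and lipid binding genes (1 tested sensing gene is not drawn), as counted (circles) and with length and GC trends taken off (squares); filled symbols have an adjusted p under 0.05. All 5 lipid binding proteins lie to the right of 0, while transport, sensing and responsive genes lie on both sides.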

How the data were processed

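The deposited files hold 1 library each and give estimated counts (expected counts, some fractional) per gene that the authors did not normalise, which is read from the values, since 15.2% to 20.5% of the entries of a library were fractional. The build mm10 and the tool DESeq are named per the submitters' processing notes, and the aligner, counting program, annotation and strand are not given in the sources used here. From these, entries of a gene with the same Entrez identifier were summed (36186 entries, 35791 genes) and rounded. Genes kept by filterByExpr (13154) were TMM-scaled and tested with edgeR 4.0.16 in R 4.3.3, with a single quasi-likelihood fit holding 4 group means over all 12 libraries (8 residual degrees of freedom, biological coefficient of variation 0.238), with Benjamini-Hochberg adjustment, two-sided. SEs were derived from each log2 change and its F statistic (change over root F). The script was checked on simulated counts. For the correction, log2 CPM (prior count 2) centred per gene was regressed on natural splines (4 degrees of freedom each) of transcript length and GC content (GENCODE M21, 12654 tested genes), and the fitted trends entered as offsets. Single values were tested by exact permutation over libraries. The floor of 3 counts reflects sampling of reads alone, which may share molecules, and its CPM follows from depth. No pairing was used, because the labels do not tie libraries with the same number to 1 mouse. Deviations from group means gave r of -0.118 to 0.22 for same-numbered Pre and Post libraries of an arm, and of -0.202 to 0.197 for the others. With 3 libraries per group these r cannot show whether libraries were paired. Alternatives were DESeq2 1.42.0, other scaling, no filter, only the libraries compared, a replicate block and leaving out each library. The genes, lists, comparisons and tests were chosen with earlier results of these data known. Named genes are the 7, up to 4 called genes per list with the smallest p over both arms, and the 5 genes nearest in r to each of 5 members. A gene of the sensing list is counted with its list and not reported by name here.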

Additional observations from a re-analysis of the deposited data

How the results depend on the processing

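Counts of the 6 tested genes that were called changed as follows. In the control arm the count went from 2 to 0 when only the libraries compared were fitted, since Fgf15 and Fabp6 then missed the filter on low counts, and it ran from 0 to 2 with single libraries left out. It was 3 with DESeq2 and with the replicate block, where Slc51b joined, and without the filter the joint count was 4, with Nr0b2. Between the Post groups it went from 1 to 0 with length and GC offsets, and to 0 with the replicate block and these offsets together, and it ran from 0 to 1 with single libraries left out. There, Slc51b stood at -0.08 with the offsets and at -0.09 with block and offsets, against 0.96. The interaction count went from 0 to 1 with DESeq2, and ran from 0 to 1 with single libraries left out. It stayed at 2 in the 2'-FL arm and at 0 between the Pre groups with every library left out in turn, and ran from 2 to 3 over both arms. The log2 subunit ratio ran from 1.55 to 1.95 and the permutation p of Nr0b2 from 0.00866 to 0.0216, both alternatives added after the data were seen.

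Same-numbered libraries were not paired in the main fit, and the replicate block moved 1 call of the 6 tested genes: Slc51b in the control arm (0.94, adjusted p 0.0346). Over all tested genes, the block left 901 of 2038 interaction calls in number, and the length and GC offsets left 0 (2636 at an unadjusted p under 0.05). The offsets gave 4722 calls in place of 7274 in the 2'-FL arm and 2858 in place of 5011 between the Post groups, with the block 4420 and 2721. Between the Pre groups 2 calls became 24 with DESeq2, 12 without the filter and 1 with only the libraries compared. Leaving out single libraries gave 265 to 1843 calls in the control arm (1415 with all), 0 to 17 between the Pre groups, at least 3279 between the Post groups and 424 to 3024 in the interaction. With 1 mismatch allowed, 0 members held an FXR match and 0 an HNF4 match. Depth limits Nr0b2 and the Post levels of Fgf15, where 3 counts stood for up to 0.567 CPM. The causes of these moves were not tested.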
